A study of Mus musculus with 8 samples.

Results

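The EGF receptor system was described in mouse intestinal organoids by 9 genes: the receptors Egfr, Erbb2 and Erbb3, the ligands Areg, Ereg, Tgfa and Hbegf, and the negative regulators Lrig1 and Errfi1. The 9 genes were taken by name from the 13449 genes with a value in the deposited tables, and each was found by its Ensembl identifier with its rows checked against exon boundaries of GRCm38. RNA was sequenced from 4 organoid samples of MG53-TG mice, which overexpress MG53 (Trim72) globally, and 4 of their wild type littermates (WT), to ask what MG53 overexpression does to the transcriptome. The organoids grew in Matrigel in IntestiCult OGM medium, whose growth factors are not given in the sources used here. The promoter of the transgene and the age of the mice are not given in the sources used here, and the study's text also names the crypt organoids MG53;Lgr5 and Lgr5, genotypes in which both groups carry the Lgr5-EGFP-IRES-CreERT2 knock-in. No label says that the 4 samples of a group came from separate mice, so p-values measure the spread between these samples, which may be technical. Values are FPKM, fragment counts scaled to transcript length and to the mapped fragments of the sample, so that levels of different genes can be set side by side. The depth of the samples is unknown, since read counts were not used here.

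EGF family ligands are made as membrane-bound precursors and released by proteases of the ADAM family. They bind EGFR, which pairs with itself or with its relatives ERBB2 and ERBB3 and signals through the RAS-ERK and PI3K-AKT routes. In the intestinal crypt this signal sustains the division of stem and progenitor cells, and LRIG1 and ERRFI1 (also called MIG6) hold it back, LRIG1 by lowering receptor levels at the cell surface and ERRFI1 by blocking the kinase domain.

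Of the 9 genes, 5 were lower in MG53-TG (Egfr, Ereg, Hbegf, Lrig1 and Errfi1), 1 was higher (Erbb3), and Erbb2, Areg and Tgfa did not pass the test (limma on log2(FPKM + 1), where a Benjamini-Hochberg adjusted p up to 0.05 across the whole table counts as passing). Among the 10508 genes tested, 28.8% were lower and 15.7% were higher past the same threshold, 44.5% in either direction. The groups did not overlap for 7 of the 9 genes (the same 6 and Tgfa), and for 45.2% of all genes tested. The median log2 fold change was -0.64 over the 9 genes and -0.16 over all genes. After median-of-ratios scaling it was -0.46 over the 9 genes and -0.01 over all genes, and the share of higher genes among those past the threshold went from 35.3% to 49.8%. The 6 calls kept their direction and passed under that scaling too. All 9 genes passed the filter of a mean of at least 0.5 FPKM, but Ereg passed only through the WT samples. Its place among the 6 calls reflects entries in the WT against none in MG53-TG.

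**Figure D1:**
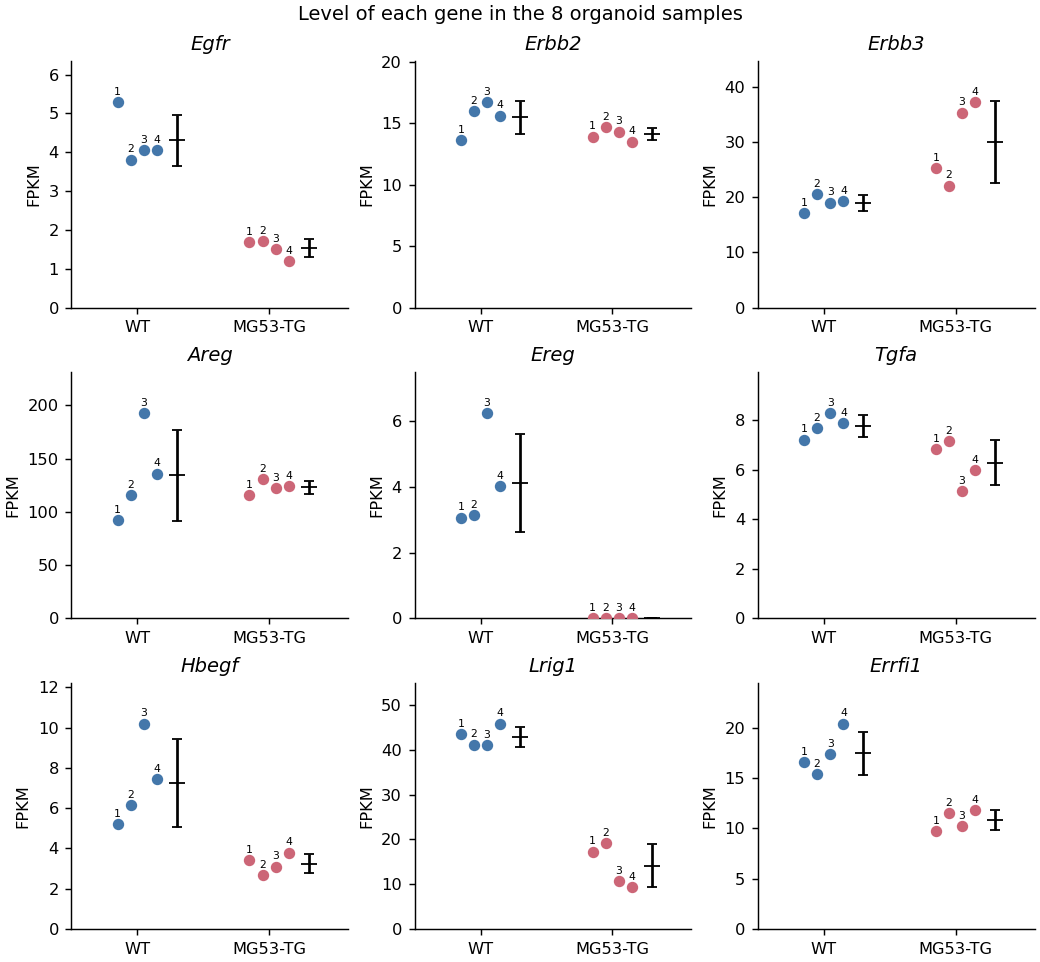
FPKM (vertical axes, from 0) of each of the 9 genes in WT and MG53-TG organoids. Points are samples with their numbers, and the bar beside each group is the mean with its SD (n = 4). Egfr, Ereg, Tgfa, Hbegf, Lrig1 and Errfi1 lay below all WT samples in all MG53-TG samples, Erbb3 was higher, and Erbb2 and Areg overlapped.

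The MG53 label was checked first. Trim72, which encodes MG53, was not listed for the WT, and MG53-TG samples 1 to 4 held 16.4, 27.4, 31.9 and 36.5 FPKM of it. The FPKM summed over all transcription starts lay between 269094 and 284330 in the 8 samples. The 8 epithelial markers summed to 2244 to 2580 FPKM in WT samples and 1833 to 2314 FPKM in MG53-TG samples, with 5 lower, 1 higher and 2 that did not pass. Among them Cdh1, Krt18 and Elf3 differed by -0.80, -1.11 and -1.05 on the log2 scale and Vil1 by 1.05 (limma adjusted p = 5.51e-05, 0.00397, 0.000456 and 0.00019), while Epcam, at 438 ± 38.4 FPKM (SD, n = 4) in the WT, differed by 0.02 (0.908). Ptprc, the pan-leukocyte marker, was at or near 0 in all samples, and Pecam1, Cdh5 and Pdgfra had no entry. The collagen genes Col1a2 and Col3a1 had no entry in the WT and were at 0.739 to 2.07 FPKM in MG53-TG samples 2 to 4, with no value for sample 1. Of 10 mesenchyme markers 6 had an entry, and their sum was 1.80 to 3.24 FPKM in the WT and 1.31 to 5.65 FPKM in MG53-TG. Of 10 immune markers 4 had an entry. Their sum was 3.77 to 9.24 FPKM in WT samples and 0.609 to 1.47 FPKM in MG53-TG samples. Cd68 made up nearly all of this sum in the WT and most of it in MG53-TG. Lyz2 held 0.119 to 0.296 FPKM in MG53-TG samples and at most 0.0616 FPKM in WT samples. Of the cell type lists within the epithelium, 10 enterocyte markers summed to 941 to 1121 FPKM in the WT and 11897 to 12957 FPKM in MG53-TG, 6 stem cell markers to 361 to 516 and 42.5 to 197 FPKM, and 8 proliferation markers to 491 to 527 and 133 to 365 FPKM. Enteroendocrine markers summed to 232 to 291 and 342 to 491 FPKM, Paneth cell markers to 530 to 792 and 272 to 511 FPKM and goblet cell markers to 413 to 456 and 121 to 326 FPKM. All 10 enterocyte markers were higher. Of the stem cell and proliferation markers, 4 of 6 and 7 of 8 were lower. Of those tested, 3 of 6 enteroendocrine markers were higher, and 4 of 5 Paneth and 4 of 6 goblet cell markers were lower. The rest did not pass. Against their lists, the means of Zg16 (goblet) and Nupr1 (Paneth) were higher and that of Gcg (enteroendocrine) lower in MG53-TG, none passing. Of 6 endothelial and glial markers 2 had an entry, and they summed to at most 0.461 FPKM in WT samples and to 4.45 to 8.19 FPKM in MG53-TG samples. The sums of the epithelial and mesenchyme markers overlapped between the groups, and those of the other lists did not. Enterocyte, enteroendocrine and endothelial and glial sums were higher in MG53-TG, and immune, stem cell, proliferation, Paneth and goblet cell sums were lower. The part of these lists in the results was not tested. In bulk RNA, fewer cells of a type and less RNA per cell cannot be told apart. MG53-TG samples 3 and 4 stood apart from samples 1 and 2, with Mki67, a marker of dividing cells, at 28.3, 32.6, 12.6 and 5.77 FPKM in samples 1 to 4 of MG53-TG. Fits with either pair alone, given below, were added after seeing the data, and their p-values depend on that choice.

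Among the receptors, Egfr fell, Erbb3 rose and Erbb2 did not pass the test. Egfr (chromosome 11, 16752203 to 16918158, plus strand), the receptor that binds the 4 ligands described here, was at 5.29, 3.81, 4.06 and 4.05 FPKM in WT samples 1 to 4 and at 1.69, 1.72, 1.5 and 1.2 FPKM in samples 1 to 4 of MG53-TG. The groups did not overlap, and the lowest WT sample was over the highest MG53-TG sample. The mean went from 4.30 ± 0.668 to 1.53 ± 0.240 FPKM (SD, n = 4 each), a ratio of 0.355, and -1.07 as log2 fold change (limma adjusted p = 0.000345, standard error 0.12). Its exact permutation p was 0.0286, two-sided over 70 relabellings and the smallest that 4 samples against 4 can give. The fold change on this scale understates the change of genes with low FPKM, as Egfr is. Almost all of this came from the main start, with 0.141 FPKM at most from a second start inside the gene. An early transcript end of Egfr (chromosome 11, 16887141 to 16887923), upstream of the last exon of the gene, was at 1.67 FPKM in WT sample 1, at 0.621 and 0.505 FPKM in MG53-TG samples 1 and 4, and under 0.004 FPKM in the remaining samples. It did not follow the groups.

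Erbb3 (chromosome 10, 128567523 to 128589652, minus strand), a receptor with little kinase activity of its own that binds neuregulins, was at 17.1, 20.5, 19.0 and 19.3 FPKM in WT samples 1 to 4. In MG53-TG samples 1 to 4 it was at 25.3, 22.1, 35.3 and 37.2 FPKM. All MG53-TG samples lay above all WT samples, and samples 3 and 4 were well above samples 1 and 2. The mean rose from 19.0 ± 1.40 to 30.0 ± 7.4 FPKM (SD, n = 4 each), which is a difference in log2(FPKM + 1) of 0.60 (limma, adjusted p = 0.0216, standard error 0.17, exact permutation p = 0.0286). The call is the weakest of the 6. It was lost without WT sample 1 (limma adjusted p = 0.0576) or MG53-TG sample 3 (0.0565), and with MG53-TG samples 1 and 2 alone the log2 fold change was 0.31 (adjusted p from limma = 0.0597), against 0.90 (0.000483) with samples 3 and 4 alone.

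Erbb2 (chromosome 11, 98412470 to 98437716, plus strand), the partner receptor with no known ligand, was at 13.6, 16.0, 16.7 and 15.6 FPKM in WT samples 1 to 4 and at 13.9, 14.7, 14.3 and 13.5 FPKM in samples 1 to 4 of MG53-TG. The groups overlapped. Its log2 fold change was -0.12, with a 95% interval from -0.32 to 0.08 (limma adjusted p = 0.285), and the sign changed with median-of-ratios scaling (0.06) and quantile normalization (0.02). The last bases of Erbb2 overlap Mien1 on the opposite strand, which ranged over 46.9 to 58.7 FPKM in WT samples and 58.5 to 97.5 FPKM in MG53-TG samples, and whether reads were counted by strand is not given in the sources used here. With start events only, in place of the end event at that overlap, Erbb2 did not pass either (log2 fold change -0.17, limma adjusted p = 0.124). An intron of Erbb2 (chromosome 11, 98433049 to 98433131) was retained in 29.7% ± 1.43 of FPKM in the WT and 28.7% ± 1.65 in MG53-TG (SD, n = 4 each), with overlapping groups.

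The proportions among the receptors differed between the groups. Erbb3 was 3.24 to 5.39 times Egfr in the WT samples and 12.8 to 31.1 times Egfr in the MG53-TG samples. Egfr made up 11.2% ± 2.37 of the summed FPKM of the 3 receptors in the WT and 3.46% ± 1.01 in MG53-TG (SD, n = 4 each), and Erbb3 49.0% ± 1.55 and 65.0% ± 6.58. The sum itself was 38.8 ± 1.93 FPKM in the WT and 45.6 ± 6.87 FPKM in MG53-TG, with overlapping groups. These shares restate the values of the single genes and were not tested.

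Of the ligands, the most abundant one, Areg, did not pass the test, while the scarcer Ereg and Hbegf fell. Areg (chromosome 5, 91139599 to 91148432, plus strand) encodes amphiregulin and was at 92.3, 116, 193 and 136 FPKM in WT samples 1 to 4 and at 116, 131, 122 and 124 FPKM in samples 1 to 4 of MG53-TG. All MG53-TG samples lay inside the range of the WT. The mean was 134 ± 42.8 FPKM in the WT and 123 ± 5.95 FPKM in MG53-TG (SD, n = 4 each). The log2 fold change was -0.07 with a 95% interval from -0.53 to 0.39 (limma adjusted p = 0.790), and it became 0.12 without WT sample 3 or with median-of-ratios scaling and -0.23 without WT sample 1, with quantile normalization or with end events only.

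Ereg (chromosome 5, 91074622 to 91093646, plus strand) encodes epiregulin and lies beside Areg. It was at 3.06, 3.15, 6.25 and 4.02 FPKM in WT samples 1 to 4 and had no entry in any MG53-TG sample, where it was taken as 0. No fold is given against a group without entries, and the fitted log2 difference depends on the pseudocount. Ereg passed the filter only through the WT samples. Its p-values (limma adjusted p = 4.71e-05, exact permutation p = 0.0286) therefore reflect entries against no entries, and nothing further is drawn from them. An antisense gene on the opposite strand, Gm19610, overlaps the first exon of Ereg. It showed the same split, at 1.03, 1.07, 2.49 and 3.16 FPKM in the WT samples and with no entry in the MG53-TG samples. Reads of the stretch that the pair shares cannot be told apart without strand. Gm19610 ends at 91074773, inside that exon. The transcript end of Ereg (91090064 to 91093646) lies outside Gm19610 and was listed at the same FPKM as the start, with no entry in MG53-TG. The genes whose pattern over the 8 samples was most like that of Ereg, by Pearson's r of log2(FPKM + 1) among 9975 genes with a value in all samples, were Col18a1 (r = 0.997, from a mean of 1.35 FPKM in the WT to 0 in MG53-TG), Pla2g5 (0.997, from 7.81 to 0.161 FPKM) and Adm (0.996, from 13.6 to 0.762 FPKM). This is a description across samples whose groups differ, and no p is attached to it.

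Hbegf (chromosome 18, 36504927 to 36515805, minus strand), which encodes heparin-binding EGF-like growth factor, was at 5.21, 6.16, 10.2 and 7.44 FPKM in WT samples 1 to 4. In MG53-TG samples 1 to 4 it was at 3.40, 2.66, 3.10 and 3.79 FPKM. The groups did not overlap. The mean fell from 7.26 ± 2.17 to 3.24 ± 0.474 FPKM (SD, n = 4 each), which is a difference in log2(FPKM + 1) of -0.93 (limma, adjusted p = 0.00547, standard error 0.19, exact permutation p = 0.0286).

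Tgfa (chromosome 6, 86195223 to 86275719, plus strand), which encodes transforming growth factor alpha, was at 7.21, 7.66, 8.29 and 7.89 FPKM in WT samples 1 to 4 and at 6.84, 7.16, 5.12 and 5.99 FPKM in samples 1 to 4 of MG53-TG. Every MG53-TG sample was lower than every WT sample, as in 29.1% of all genes tested, and the exact permutation p was 0.0286. The mean was 7.76 ± 0.452 FPKM in the WT and 6.28 ± 0.915 FPKM in MG53-TG (SD, n = 4 each). The log2 fold change of -0.28 did not pass over all genes (limma, adjusted p = 0.0827, standard error 0.11) and came to -0.12 after quantile normalization and -0.11 after median-of-ratios scaling. It passed without MG53-TG sample 2 (-0.33, limma adjusted p = 0.0493). With MG53-TG samples 3 and 4 alone, a split made after seeing the data, it was at -0.42 (limma adjusted p = 0.015).

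**Figure D2:**
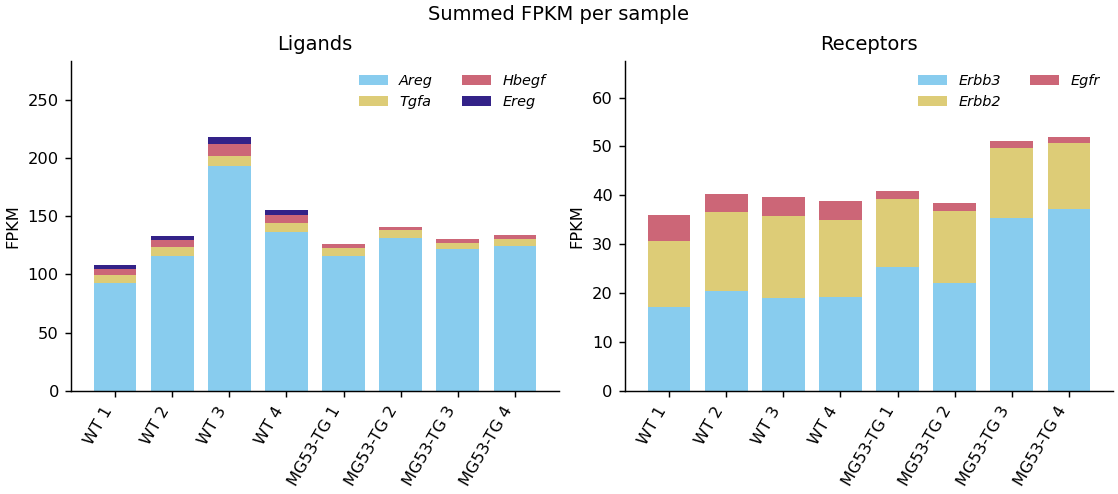
FPKM (vertical axes, from 0) of the 4 ligands and the 3 receptors stacked per sample, with a colour for each gene. Areg made up most of the ligand sum in every sample, and the Egfr part of the receptor bars was smaller in all MG53-TG samples.

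Summed over the 4 ligands the samples were at 108, 133, 217 and 156 FPKM in the WT and at 127, 141, 130 and 134 FPKM in MG53-TG, and the groups overlapped. Without Areg, the sum of Ereg, Tgfa and Hbegf was 19.1 ± 4.07 FPKM in the WT and 9.51 ± 0.886 FPKM in MG53-TG (SD, n = 4 each). Areg was 87.3% ± 1.23 of the ligand sum in the WT and 92.8% ± 0.727 in MG53-TG. These sums were not tested.

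Both negative regulators fell. Lrig1 (chromosome 6, 94604529 to 94700158, minus strand), a membrane protein that also marks stem and progenitor cells of the crypt, was at 43.6, 41.2, 41.1 and 45.9 FPKM in WT samples 1 to 4. In MG53-TG samples 1 to 4 it was at 17.3, 19.2, 10.7 and 9.32 FPKM. The groups lay far apart, and samples 3 and 4 were again the more distant ones. The mean fell from 43.0 ± 2.27 to 14.1 ± 4.83 FPKM (SD, n = 4 each), a ratio of 0.329, and -1.60 as log2 fold change (limma adjusted p = 0.000772, standard error 0.22, exact permutation p = 0.0286). With MG53-TG samples 1 and 2 alone it was -1.19 (limma adjusted p = 0.000248), and with samples 3 and 4 alone -2.0 (3.76e-05). Nearly all of the value came from the main start of the gene except in WT sample 1, where an internal start listed in no other sample held 6.09 of 43.6 FPKM. The ratio of Lrig1 to Egfr overlapped between the groups, at 10.1 ± 1.35 FPKM of Lrig1 per FPKM of Egfr in the WT and 9.08 ± 1.91 in MG53-TG (SD, n = 4 each). Among the stem cell markers, Lgr5 averaged 44.8 ± 6.18 FPKM in the WT and 14.1 ± 6.40 FPKM in MG53-TG (SD, n = 4 each), with 18.6, 20.5, 7.90 and 9.25 FPKM in samples 1 to 4 of MG53-TG, the same order of the sample pairs as in Lrig1, and its part in the result was not tested.

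Errfi1 (chromosome 4, 150853919 to 150868892, plus strand), itself induced by EGFR signaling as a feedback inhibitor, was at 16.6, 15.4, 17.4 and 20.4 FPKM in WT samples 1 to 4 and at 9.74, 11.5, 10.2 and 11.8 FPKM in samples 1 to 4 of MG53-TG. The groups did not overlap. The mean fell from 17.4 ± 2.13 to 10.8 ± 0.999 FPKM (SD, n = 4 each), which is a difference in log2(FPKM + 1) of -0.64 (limma, adjusted p = 0.00257, standard error 0.11, exact permutation p = 0.0286). With the highest single event as the gene's value, which is the downstream start described next, it was -1.12 (limma adjusted p = 0.000568).

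Errfi1 had 2 transcription starts, and the groups were separate at one of them. The downstream start (first exon on chromosome 4 from 150855073 to 150855271) was at 11.1, 12.5, 15.8 and 14.5 FPKM in WT samples 1 to 4 and at 5.74, 6.68, 5.50 and 4.63 FPKM in samples 1 to 4 of MG53-TG, a ratio of the means of 0.419. The upstream start (first exon from 150853919 to 150854105), which is 1154 bases away, was at 5.46, 2.91, 1.63 and 5.93 FPKM in WT samples and at 4.00, 4.79, 4.69 and 7.20 FPKM in MG53-TG. The groups were separate at the downstream start and overlapped at the upstream start. An antisense gene on the opposite strand, 1700045H11Rik (150828225 to 150854949), spans the upstream first exon and ends before the downstream one. It had no value in any sample. Whether reads were counted by strand is not given in the sources used here, so antisense reads at the upstream start cannot be told apart. The upstream start held 9.35% to 33.0% of Errfi1 in the WT samples and 41.1% to 60.9% in the MG53-TG samples. The coding exons of the protein-coding transcripts from both starts are the same in the GENCODE annotation. How the estimate divides reads between the starts rests on the short first exons, the difference between the starts was not tested, and the choice to describe it was made with the values known.

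**Figure D3:**
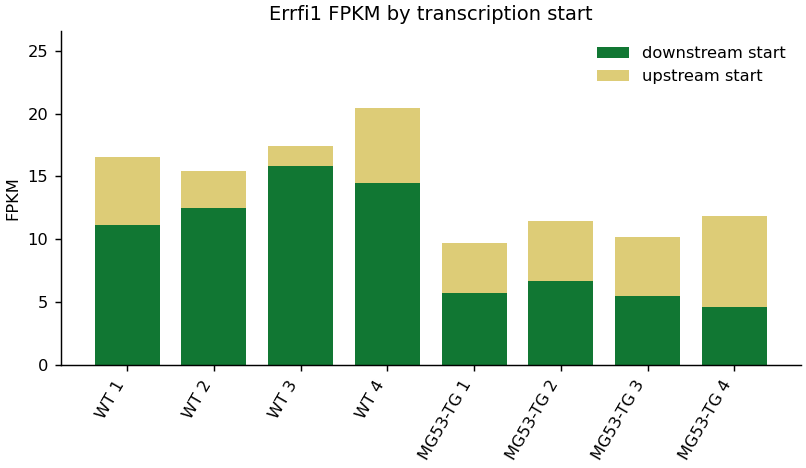
Errfi1 FPKM (vertical axis, from 0) in the 8 organoid samples, stacked by transcription start. The downstream part of the bars was 4.63 to 6.68 FPKM in MG53-TG and 11.1 to 15.8 FPKM in the WT, while the upstream part overlapped between the groups.

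The stretches of 250 bases before both Errfi1 starts are shown because only one of the starts was separate between the groups, with those of Lrig1, Egfr and Areg, which fell, fell and did not pass the test. They are RefSeq sequences of GRCm38.p6, given 5′ to 3′ on the strand of the gene, at chr4:150853546-150853795 and chr4:150854820-150855069 for the upstream and downstream start of Errfi1, chr6:94700146-94700395 for Lrig1, chr11:16751953-16752202 for Egfr and chr5:91139349-91139598 for Areg. Of the 9 genes, 6 had a promoter in the table used. The RefSeq start lies 123 bases before the upstream and 3 bases before the downstream Errfi1 start of the deposited files. Capitals mark matches on either strand to the GC box GGGCGG, the TATA box TATAAA, the ETS motif CCGGAAG and the cyclic AMP response element (CRE) TGACGTCA, the last added after the sequences had been read.
Errfi1 upstream: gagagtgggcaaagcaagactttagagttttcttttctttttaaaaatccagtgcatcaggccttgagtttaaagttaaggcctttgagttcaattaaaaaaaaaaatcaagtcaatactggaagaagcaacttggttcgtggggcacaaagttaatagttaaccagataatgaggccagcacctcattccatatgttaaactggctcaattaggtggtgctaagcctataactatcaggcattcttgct
Errfi1 downstream: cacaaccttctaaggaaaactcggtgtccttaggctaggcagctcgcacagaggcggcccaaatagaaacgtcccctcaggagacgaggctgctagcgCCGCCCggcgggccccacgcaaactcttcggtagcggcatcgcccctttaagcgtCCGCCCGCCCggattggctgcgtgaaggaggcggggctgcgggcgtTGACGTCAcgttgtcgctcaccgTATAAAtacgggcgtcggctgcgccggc
Lrig1: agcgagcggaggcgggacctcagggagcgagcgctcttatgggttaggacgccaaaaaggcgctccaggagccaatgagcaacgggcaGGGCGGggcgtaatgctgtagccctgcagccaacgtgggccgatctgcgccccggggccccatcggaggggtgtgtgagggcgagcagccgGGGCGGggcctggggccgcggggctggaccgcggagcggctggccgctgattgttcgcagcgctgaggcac
Egfr: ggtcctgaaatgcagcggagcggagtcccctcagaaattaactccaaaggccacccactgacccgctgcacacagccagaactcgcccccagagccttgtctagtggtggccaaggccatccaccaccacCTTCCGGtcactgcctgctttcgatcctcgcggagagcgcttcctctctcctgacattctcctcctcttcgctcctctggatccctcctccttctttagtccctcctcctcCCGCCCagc
Areg: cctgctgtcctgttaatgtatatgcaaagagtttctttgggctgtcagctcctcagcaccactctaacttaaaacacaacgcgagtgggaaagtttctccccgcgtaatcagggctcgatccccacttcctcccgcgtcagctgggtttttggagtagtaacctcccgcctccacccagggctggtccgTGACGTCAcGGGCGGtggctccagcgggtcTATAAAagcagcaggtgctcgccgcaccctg

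The stretch before the upstream Errfi1 start had a GC content of 38.0% and none of the motifs searched, and that before the downstream start had 64.8% GC, 3 matches to the GC box, a TATA box at position -28 and a CRE at position -51. The median GC content of all 32851 promoters of this length was 52.4%. Areg also held a TATA box at position -31, a CRE at position -61 and a GC box at position -52. A GC box was in 32.7% of all promoters, a TATA box in 12.4%, an ETS motif in 6.91% and a CRE in 1.55%. The AP-1 motif TGANTCA (6.75% of all promoters), the TCF/LEF motifs CTTTGAT (3.21%) and CTTTGAA (4.46%), the PPAR DR1 motif (0.0335%) and the CArG box (1.47%) were searched as well and had no match in the stretches of the 6 genes. A match is a description of the letters and not a binding site.

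In the order of their levels, the WT had Areg, Lrig1, Erbb3, Errfi1, Erbb2, Tgfa, Hbegf, Egfr and Ereg. Erbb3, Errfi1 and Erbb2 overlapped with their neighbours in this order, as did Tgfa, Hbegf, Egfr and Ereg. In MG53-TG, Erbb3 stood above Lrig1, and Lrig1, at 9.32 to 19.2 FPKM, overlapped both Erbb2 and Errfi1. Lrig1 was the second of the 9 genes in the WT, apart from all others.

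**Figure D4:**
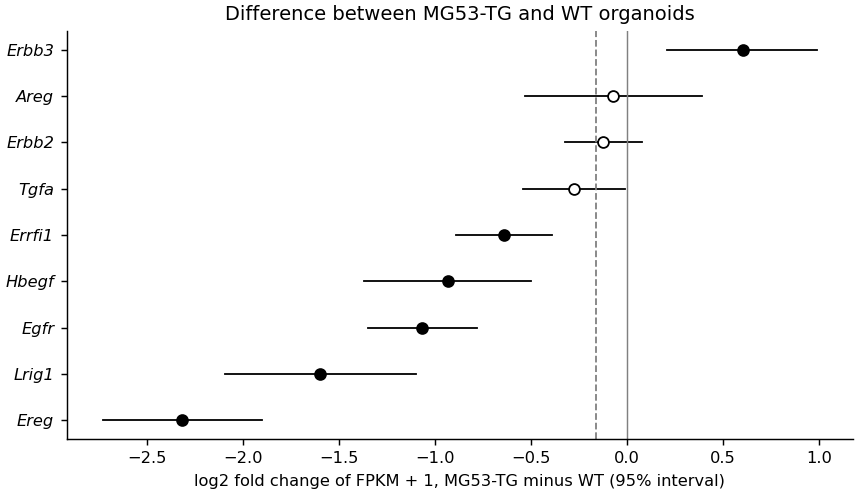
Log2 fold change of FPKM + 1 (MG53-TG minus WT, horizontal axis) of the 9 genes with its 95% interval from limma. Filled points passed the adjusted threshold of 0.05, the solid line is at 0 and the dashed line at the median of all genes (-0.16). The value of Ereg depends on the pseudocount, since it had no entry in MG53-TG.

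The rest of the pathway was read from 75 listed genes, of which 63 could be tested. Of these, 27 were lower, 6 higher and 30 did not pass, against 28.8% and 15.7% of all genes. The median log2 fold change was -0.31. With median-of-ratios scaling 20 were lower and 7 higher, and the median was -0.13.

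Of the other receptor and ligand genes, Btc and Nrg4 could be tested. Btc, which encodes betacellulin, was at 12.2, 15, 16.8 and 14.6 FPKM in WT samples 1 to 4 and at 6.80, 11.2, 8.20 and 8.03 FPKM in samples 1 to 4 of MG53-TG (log2 fold change -0.72, limma adjusted p = 0.00719, standard error 0.16). It was the second most abundant ligand measured, and all MG53-TG samples were below all WT samples. Nrg4, a neuregulin, rose from 0.316 ± 0.179 to 1.54 ± 0.768 FPKM (SD, n = 4 each), which is a difference in log2(FPKM + 1) of 0.90 (limma adjusted p = 0.0139). Like Ereg, it passed the filter only through the group where it is high, so no conclusion is drawn from its p-value. The call was lost with MG53-TG samples 1 and 2 alone (log2 fold change 0.53, limma adjusted p = 0.0684), against 1.27 (0.000882) with samples 3 and 4 alone. With a pseudocount of 0.1 the log2 difference of Nrg4 was 1.93. Egf itself was at or under 0.0528 FPKM in every sample, and Erbb4, Epgn, Nrg1, Nrg2 and Nrg3 had no entry.

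The genes that release the ligands moved unequally. Of 8 tested, 4 were lower, 1 higher and 3 did not pass, with a median log2 fold change of -0.23, beside 28.8% lower and 15.7% higher among all genes, and with median-of-ratios scaling 3 were lower and 2 higher (median -0.06). Adam17, the main sheddase of Areg, Tgfa and Hbegf precursors, ranged over 9.81 to 11.6 FPKM in WT samples and 4.95 to 7.49 FPKM in MG53-TG samples (log2 fold change -0.76, limma adjusted p = 0.00281). Adam10 fell from 41.1 ± 8.51 to 18.8 ± 4.55 FPKM (SD, n = 4 each; on the log2 scale a fold change of -1.09, limma adjusted p = 0.00326, and -2.0 with end events only), and Rhbdf1, which guides ADAM17 to the surface, had a log2 fold change of -0.73 (adjusted p from limma = 0.00949), which did not pass with MG53-TG samples 1 and 2 alone (-0.58, 0.057) and passed with samples 3 and 4 alone (-0.89, 0.00831). Adam15 rose from 2.49 ± 0.406 to 5.63 ± 0.523 FPKM (SD, n = 4 each; on the log2 scale a fold change of 0.93, limma adjusted p = 0.00055).

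In the signaling routes, 8 of 18 and 4 of 9 genes passed, near the 44.5% of all genes. Of 18 adaptor and RAS-ERK genes, 6 were lower, 2 higher and 10 did not pass, with a median log2 fold change of -0.16, the same as that of all genes. With median-of-ratios scaling 3 were lower and 2 higher, with a median of 0.01. Mapk3, which encodes ERK1, rose from 48.2 ± 9.18 to 81.8 ± 13.8 FPKM and Map2k2, which encodes MEK2, from 37.6 ± 1.15 to 61.3 ± 9.79 FPKM (SD, n = 4 each; on the log2 scale fold changes 0.75 and 0.68, limma adjusted p = 0.00688 and 0.00188). Rps6ka3, an ERK-activated kinase, and Nras fell, with log2 fold changes of -0.90 and -0.64 (limma adjusted p = 0.000127 and 0.000503). Of 9 PI3K-AKT genes 4 were lower and 5 did not pass. Among the lower ones, Pdpk1, Pik3ca and Pik3r1 had log2 fold changes of -0.61, -0.58 and -0.54 (limma adjusted p = 0.0163, 0.0188 and 0.00567). Pik3ca did not pass without WT sample 1 (limma adjusted p = 0.0518) or with MG53-TG samples 1 and 2 alone (0.0701). Pik3r2, singled out after its values were seen, was at 90.5 and 115 FPKM in WT samples 2 and 3 and under 0.1 FPKM in all others, and did not pass (limma adjusted p = 0.138).

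**Figure D5:**
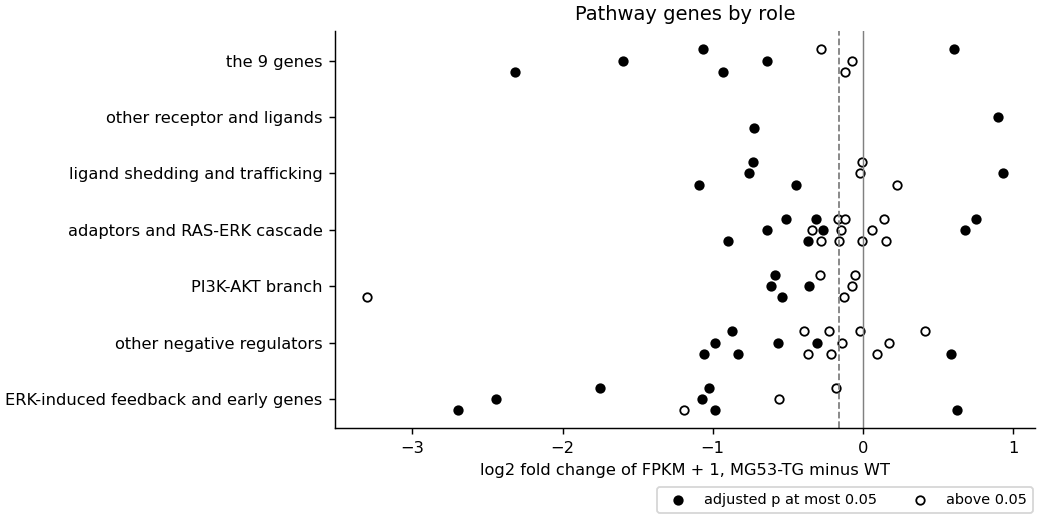
Log2 fold change of FPKM + 1 (MG53-TG minus WT, horizontal axis) of the 9 genes and of the tested pathway genes, 1 point a gene, by role. Filled points passed limma's adjusted threshold of 0.05, the dashed line is the median of all genes (-0.16), and the height within a role has no meaning. The lowest filled points outside the 9 genes, Phlda1 (-2.70) and Ier3 (-2.44), lie among the ERK-induced genes, and the open point at -3.30 is Pik3r2.

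The other negative regulators had 6 genes lower, 1 higher and 9 that did not pass of 16 tested, with a median of -0.26, so that 7 of 16 passed beside 44.5% of all genes. With median-of-ratios scaling 4 were lower and 1 higher, with a median of -0.09. Spred1 and Spred2, inhibitors of RAF activation, fell from 11.4 ± 0.597 to 5.10 ± 1.64 FPKM and from 16.6 ± 2.04 to 7.95 ± 1.58 FPKM (SD, n = 4 each; on the log2 scale fold changes -1.06 and -0.98, limma adjusted p = 0.003 and 0.0015). With end events only, Spred2 did not pass (-0.59, limma adjusted p = 0.161). Socs5 and the phosphatase gene Ptpn12 fell too, with log2 fold changes of -0.87 and -0.83 (limma adjusted p = 0.0211 and 0.000248), where MG53-TG sample 1 had no value for Socs5. Without WT sample 3 Socs5 did not pass (limma adjusted p = 0.0521), and with a pseudocount of 0.1 its log2 fold change was -1.45. With MG53-TG samples 1 and 2 alone, only sample 2 had a value for Socs5. The log2 fold change was then -0.54, and no test is read from it. Lrig2 and Lrig3, the relatives of Lrig1, did not pass, with log2 fold changes of 0.18 and -0.22 (limma adjusted p = 0.268 and 0.181), and were picked for mention with their values in view. Spry1, Spry2 and Spry4 had no entry.

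Of the genes that ERK signaling is known to induce, 6 were lower, 1 higher and 3 did not pass of 10 tested, and the median log2 fold change was -1.05, beside 28.8% lower and 15.7% higher among all genes. With median-of-ratios scaling 6 were lower and 1 higher, with a median of -0.90. Phlda1 was at 51.2, 53.5, 72.8 and 66.7 FPKM in WT samples 1 to 4 and at 10.4, 10.5, 7 and 6.59 FPKM in samples 1 to 4 of MG53-TG (log2 fold change -2.70, limma adjusted p = 2.68e-05, standard error 0.18). Ier3 ranged over 35.9 to 74.0 FPKM in WT samples and 7.68 to 9.95 FPKM in MG53-TG samples (log2 fold change -2.44, limma adjusted p = 0.000112). The ETS factor genes Etv5 and Etv4 fell by 1.07 and 1.75 on the log2 scale (limma adjusted p = 0.00149 and 0.0255), the call of Etv4 being lost in 4 of the 8 fits that left out a sample (without WT samples 2, 3 or 4 or MG53-TG sample 3, limma adjusted p up to 0.0641), with a pseudocount of 0.1 (0.0581) and with end events only (0.202). Etv4 was at -0.97 with MG53-TG samples 1 and 2 alone and at -2.53 with samples 3 and 4 alone. Dusp6, a common readout of ERK activity, ranged over 8.43 to 10.6 FPKM in WT samples and 7.41 to 8.40 FPKM in MG53-TG samples and did not pass (log2 fold change -0.18, limma adjusted p = 0.169), and Dusp5 had a log2 fold change of 0.62 (adjusted p from limma = 0.0143). Dusp5 was the 1 higher gene of these, and its call was lost with MG53-TG samples 1 and 2 alone. Dusp6 and Dusp5 were chosen for mention after their values were seen. Jun and Junb had no entry and Fosl1 was under the filter.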

How the data were processed

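RNA of 4 WT and 4 MG53-TG organoid samples was sequenced. Per the methods and the submitters' processing notes, the authors trimmed reads with Cutadapt 1.9.1, mapped them to mm10 with HISAT2 2.0.1, made FPKM with HTSeq 0.6.1 and deposited FPKM per transcript event (start, end, skipped exon, retained intron or exon end), per sample. The tool that made the event tables is not given in the sources used here.

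A gene's value was the sum of its start events, or of its end events where their mean was higher (among the 9 genes, Erbb2). Rows at exon boundaries of another GENCODE M21 (GRCm38) gene only were left out. A gene absent from a sample was missing if the median of its group was at least 0.5 FPKM and 0 otherwise. This left 1158 genes with a missing value. Groups were compared with limma 3.58.1 (lmFit, eBayes with trend) in R 4.3.3 on log2(FPKM + 1) for genes averaging 0.5 FPKM or more, and p-values were adjusted after Benjamini and Hochberg. For a single gene, an exact permutation test (two-sided) over the 8 samples was added. Samples were not paired: the correlation of deviations of same-numbered samples was 0.102, -0.000729, 0.098 and -0.0507. In data simulated for this comparison, 64.0% of 200 genes changed by 1 on the log2 scale among 9976 were recovered, with 4 unchanged genes called. The simulation drew noise independently for each gene and changed a far smaller share of genes than the 44.5% that passed in the data. Its figures therefore check the code and do not give the power or error of this comparison. Python 3.11.15, numpy 2.4.6, pandas 2.3.3, scipy 1.17.1 and matplotlib 3.10.9 were used for the rest.

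The 9 genes, the 6 pathway lists and the marker lists were chosen with earlier results of these data known. By rule, the genes named were the 9, Trim72, up to 4 genes per pathway list with the largest log2 fold change among those past the threshold, the 3 genes most like Ereg, and markers beside a result. Genes named outside this rule include Pik3r2, Lrig2, Lrig3, Dusp5, Dusp6, Egr1 and Fos, chosen after their values were seen. A gene that this rule names is not reported here. Alternatives tried were a pseudocount of 0.1, all genes kept or those averaging 2 FPKM or more, quantile or median-of-ratios scaling, array weights, a replicate block, leaving out each sample, 3 other gene values, assignment by exon boundaries, and absent values as 0. Fits with MG53-TG samples 1 and 2 or 3 and 4 alone were added after seeing the data.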

Additional observations from a re-analysis of the deposited data

Results flagged for a closer look

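For each of the 9 genes, WT and MG53-TG were searched for a lone distant sample, 18 groups in all. The search found 1, where chance gives 0.9 at 1 in 20. Egfr was at 5.29 FPKM in WT sample 1, above the other WT samples at 3.81 to 4.06 FPKM. Without WT sample 1 Egfr still passed the threshold, as in the other 7 fits that left out a sample (limma adjusted p at most 0.00164).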

How the results depend on the processing

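Of the 9 genes 6 passed under 8 of 8 alternatives of pseudocount, filter, scaling, block, weights and absent values, and 5 to 7 passed when a sample was left out. With end events only 3 passed (Erbb3, Ereg and Hbegf), because only 5 of the 9 then had a value over the filter. The log2 fold change of Erbb2 was 0.02 after quantile normalization and 0.06 after median-of-ratios scaling, and that of Areg 0.12 with median-of-ratios scaling, so no direction is given for either. When a sample was left out, Areg ranged from -0.23 to 0.12, Erbb3 from 0.49 to 0.73 and Tgfa from -0.33 to -0.20. With MG53-TG samples 1 and 2 alone Erbb3 was at 0.31, and with samples 3 and 4 alone Tgfa was at -0.42. The causes were not tested. Genes past the threshold numbered 4680, between 3734 and 4932 when a sample was left out, and 3727 and 5677 with MG53-TG samples 1 and 2 or 3 and 4 alone. Sample numbers were not taken to pair the samples. A replicate block gave 4271 genes past the threshold, 6 of the 9 among them, and no call among the 9 changed. The depth is unknown, so limits on low genes such as Egfr and Ereg cannot be given.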

Other observations

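WT sample 3 had the highest value among the WT samples for all 4 ligands, with Areg at 193, Ereg at 6.25, Tgfa at 8.29 and Hbegf at 10.2 FPKM. It also had the highest value for 8 of the 11 ERK-induced genes with an entry (Dusp6, Egr1, Fos, Fosl1, Etv4, Ier3, Phlda1 and Ccnd1). Among the 10261 tested genes used for this count, WT sample 3 was the highest WT sample for 26.7%. Egr1 was at 7.23, 9.34, 13.1 and 9.22 FPKM and Fos at 5.27, 5.65, 9.57 and 7.85 FPKM in WT samples 1 to 4. Fos and Egr1 were named after their values were seen. The pattern was noticed in the data and is given as a description of 1 library, with no test.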
